A study of Caenorhabditis elegans with 18 samples.

Results

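The comparison described here sets the small RNAs recovered with the Argonaute protein WAGO-1 against those of the whole extract it came from. Its members are the 6 of the 18 libraries that the labels place in the 1xFLAG::WAGO-1 strain with dpf-3 intact. They are 3 immunoprecipitates (IP, replicates A, B and C) and 3 inputs (replicates A, B and C). In both groups the animals were whole Caenorhabditis elegans worms staged at L4, raised at 15 °C on peptone-rich plates with NA22 bacteria, and the tagged protein was pulled down with anti-FLAG magnetic beads. The 3 IPs and 3 inputs of the strain 1xFLAG::WAGO-3, also with dpf-3 intact, are used beside them in places, and the remaining 6 libraries come from WAGO-1 in animals carrying a dpf-3 deletion. The labels do not say whether the letters mark separate cultures, so p-values measure the spread between these libraries, which may be technical. No IP from an untagged strain was among the samples, and the small RNA enrichment step was given to the inputs and not to the IPs, so binding to WAGO-1, background on the beads and this step cannot be told apart.

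As background, WAGO-1 belongs to the worm-specific branch of Argonautes that carry 22G RNAs, secondary small RNAs made by RNA-dependent RNA polymerases on a target transcript and antisense to it. In the germ line, 22G RNAs bound by WAGO proteins silence transposons, pseudogenes, unannotated transcripts and some genes, often downstream of piRNAs held by PRG-1, whereas 22G RNAs bound by CSR-1 cover expressed germline genes. In such libraries a read counted under a gene is usually a small RNA made on that gene's transcript, and says nothing direct about the amount of that transcript. A polyphosphatase step on the 5' ends made 22G RNAs, which start with a triphosphate, open to adapter ligation.

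The table counted reads over 20134 genes, given as WBGene identifiers, and 55259 unnamed intervals, given by position and strand. The IPs had 2894108, 5313616 and 5340238 counts in these features and the inputs 209731, 517278 and 355761, so a weakly covered feature is measured far less precisely in the inputs. Reads outside every feature made up 38.1% to 38.6% of the counted reads in the IPs and 71.1% to 76.6% in the inputs. Replicates within each group differed beyond counting noise, a measure that grows with depth and so is not compared between IPs and inputs. Among the IPs replicate A stood apart from B and C (chi-square per degree of freedom 5.23 against B, 7.44 against C, and 1.54 between B and C), and the pairs of inputs gave 1.05 to 1.22.

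Where the 0 of a fold lies depends on the scaling, and every statement below takes that into account. TMM scaling, which assumes that most features do not differ, gave a median log2 fold (IP over input) of 0.52 over the 11648 features tested, and scaling to total feature counts gave -0.92, a shift of -1.44. Levels are given as CPM, counts per 1000000 feature counts of a library, which is the total-count scale, and log2 folds are given on the TMM scale with the total-count value beside them. Calls come from edgeR's quasi-likelihood test, at a p under 0.05 after Benjamini-Hochberg adjustment over all tested features. A feature is said to be higher or lower in the IP where both scales call it the same way, unless a scale is named. The filter on low counts took in all 18 libraries, and any 3 of them could pass a feature. A feature covered in the IPs only reached the filter level (7.34 CPM) in all 3 IPs but not in all 3 inputs. One covered in the inputs only did the reverse. Of the 11648 tested, 815 were of the first kind and 2898 of the second. In both groups 4129 were covered so, and in neither 3806.

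The WAGO-1 IP was concentrated on a minority of loci. In the TMM fit 5037 features were higher (43.2% of those tested) and 2895 lower (24.9%), 68.1% in either direction, and with total counts 1434 were higher (12.3%) and 5686 lower (48.8%). All 1434 called higher with total counts were also called higher with TMM, and all 2895 called lower with TMM were also lower with total counts. This nesting follows from a shift that is nearly the same for all features, and is no second check. A call on both scales is thus the total-count call for higher and the TMM call for lower. Between these lay 3162 features that were higher with TMM and not called with total counts, 2350 lower with total counts alone, 441 called in opposite directions and 1366 called on neither scale. The 3 IPs and the 3 inputs did not overlap in TMM-scaled level for 68.8% of tested features, 66.3% of the genes and 82.2% of the intervals. As a description of the same counts, the 1434 features higher on both scales held 71.2%, 68.9% and 68.3% of IP counts in replicates A, B and C and 44.1% to 44.4% of input counts, and the 2895 lower ones held 1.55% to 1.67% of IP counts and 19.3% to 19.7% of input counts.

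**Figure D1:**
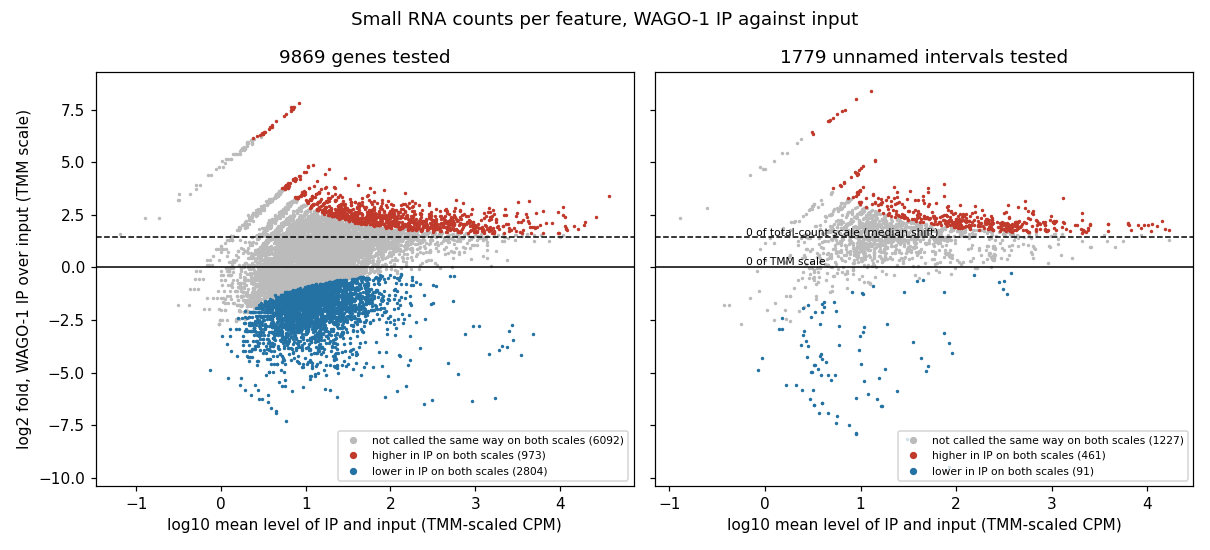
Each point is a tested gene (left) or unnamed interval (right), with the log10 of the mean TMM-scaled level (CPM with TMM factors) of IP and input on the x axis and the log2 fold of WAGO-1 IP over input on the y axis. Red points (973 genes, 461 intervals) are higher in the IP and blue points (2804 genes, 91 intervals) lower on both scales; the solid line is the 0 of the TMM scale and the dashed line that of the total-count scale. The red points lie at higher levels than most blue ones.

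Calls varied with level. To read this from libraries outside the comparison, features were ranked by their level in the WAGO-3 input and cut into 10 classes of equal size. In the class with the highest WAGO-3 input level, 41.8% were higher in the WAGO-1 IP and 23.9% lower. In the 9 classes below it 7.12% to 14.8% were higher, and 4.98% were lower in the lowest class against 40.4% in the class next to the top. The median log2 fold on the TMM scale was 1.52 in the highest class and 1.53 in the lowest, with a minimum of -0.23 between them. In the lowest class 13.1% of features were covered in the IPs only.

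The loci with the most reads were largely shared between IP and input and took a larger part of the IP. Of the 20 features with the most reads in the IPs, 19 were higher in the IP. WBGene00206497, which the tables used here do not name, had 44060, 30310 and 26120 CPM in IP replicates A, B and C, against 9369, 8719 and 8323 in input replicates A, B and C (log2 fold 3.40 ± 0.09 SE, 1.93 with total counts, adjusted p = 9.76e-67). All 3 IPs lay above all 3 inputs, and replicate A was the highest IP. The gene zfp-1, which encodes a chromatin protein with PHD fingers, had 8333, 9408 and 10370 CPM in the IPs against 4692, 4932 and 4986 in the inputs (2.40 ± 0.07, 0.94 with total counts, adjusted p = 1.35e-64). W09C5.12 (chromosome I, 13661522 to 13662332, build ce11) had 20310, 21770 and 22110 in the IPs against 10970, 11300 and 11510 in the inputs (2.39 ± 0.07, 0.93 with total counts). These genes were higher in every IP than in any input, as were C04G2.10 (chromosome IV; 15920, 15180 and 15340 CPM in the IPs against 9536, 9757 and 9709 in the inputs) and Y105E8A.28 (chromosome I; 10920, 8430 and 8477 against 3738, 3505 and 3314). The helicase gene eri-6, known for its part in a small RNA pathway that competes with others for shared factors, had 8055, 9451 and 9609 in the IPs against 7562, 7277 and 7207 in the inputs (1.76 ± 0.07, 0.30 with total counts), so its groups lay closer together.

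A few loci with many input reads were nearly missing from the IP. Of the 20 features with the most input reads, 14 were higher in the IP and 3 lower, and the 3 lower ones were Y17D7B.4, Y47H10A.5 and K02E2.6. Y17D7B.4, singled out after its values were seen, held 0.047% ± 0.00448 of IP counts and 1.17% ± 0.0354 of input counts (SD, n = 3 each; log2 fold -3.17 ± 0.07 SE, -4.63 with total counts, adjusted p = 1.37e-74). Y47H10A.5 (chromosome I, 12095482 to 12097987) had 152.4, 183.3 and 193.2 CPM in the IPs against 8535, 8810 and 9026 in the inputs (-4.17 ± 0.08, -5.63 with total counts). K02E2.6 (chromosome V, 20380561 to 20382036) had 181.1, 233.6 and 259.0 in the IPs against 6289, 6892 and 7199 in the inputs (-3.45 ± 0.08, -4.91 with total counts). In each of Y47H10A.5 and K02E2.6 the lowest input lay far above the highest IP.

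Of genes called on both scales, with no overlap between IPs and inputs and at least 20 TMM-scaled CPM in a group, the 10 with the most negative folds included 5 that lay close together in 2 places on chromosome V. These conditions fix the direction and the separation, 8 of the 10 were covered in the inputs only, and some genes at lower levels had more negative folds. F55C9.5 had 2.07, 2.82 and 2.62 CPM in the IPs against 629.4, 667.0 and 657.7 in the inputs, and the nearby F55C9.3 had 10.7, 7.90 and 13.7 against 2150, 2428 and 2608 (log2 folds -6.52 ± 0.17 and -6.35 ± 0.12 SE, and -7.96 and -7.80 with total counts). Y43F8B.17, Y43F8B.18 and Y43F8B.22 had log2 folds of -6.16 ± 0.25, -6.16 ± 0.47 and -5.65 ± 0.19. Since the treatment of reads with several positions is not given in the sources used here, the split of reads between such neighbours is uncertain. The other 5 were the F-box gene fbxa-52, pals-26 of the pals family, the sperm gene spe-12, T25F10.1 and F21C3.7. For pals-26 the inputs themselves spread widely, with 25.2, 21.5 and 19.9 CPM in the IPs against 6680, 3499 and 3587 in the inputs (-6.22 ± 0.15, adjusted p = 4.94e-74).

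At the other end, the 10 genes named by the same rule for large positive folds had few input reads, and genes with larger fitted folds were left out for their low level. For rab-3, whose product is a vesicle-bound GTPase at synapses, 209 IP reads stood against 2 input reads, a ratio of 8.35 per feature count (exact 95% interval 2.28 to 69.4, counting error only). The gene abu-6 had 138 reads against 1 (ratio 11.0, interval 1.95 to 439), R04B5.7 149 against 1 (11.9, 2.10 to 474) and C44C1.1 247 against 2 (9.87, 2.70 to 82.0). F39F10.3 had 44.2, 33.1 and 35.4 CPM in the IPs against 4.77, 5.80 and 8.43 in the inputs (log2 fold 3.94 ± 0.35 SE, adjusted p = 7.01e-20). Of the 10 genes named here for their positive folds, 8 were covered in the IPs only, these 5 included. At least 1 input of each of the 8 thus lay below the filter level, and the rule itself fixes direction and separation. C44C1.1, T21B6.3, F39F10.3 and wdr-5.2, the last a member of the WD40 family of chromatin adaptors, are the X-linked ones among the 10.

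**Figure D2:**
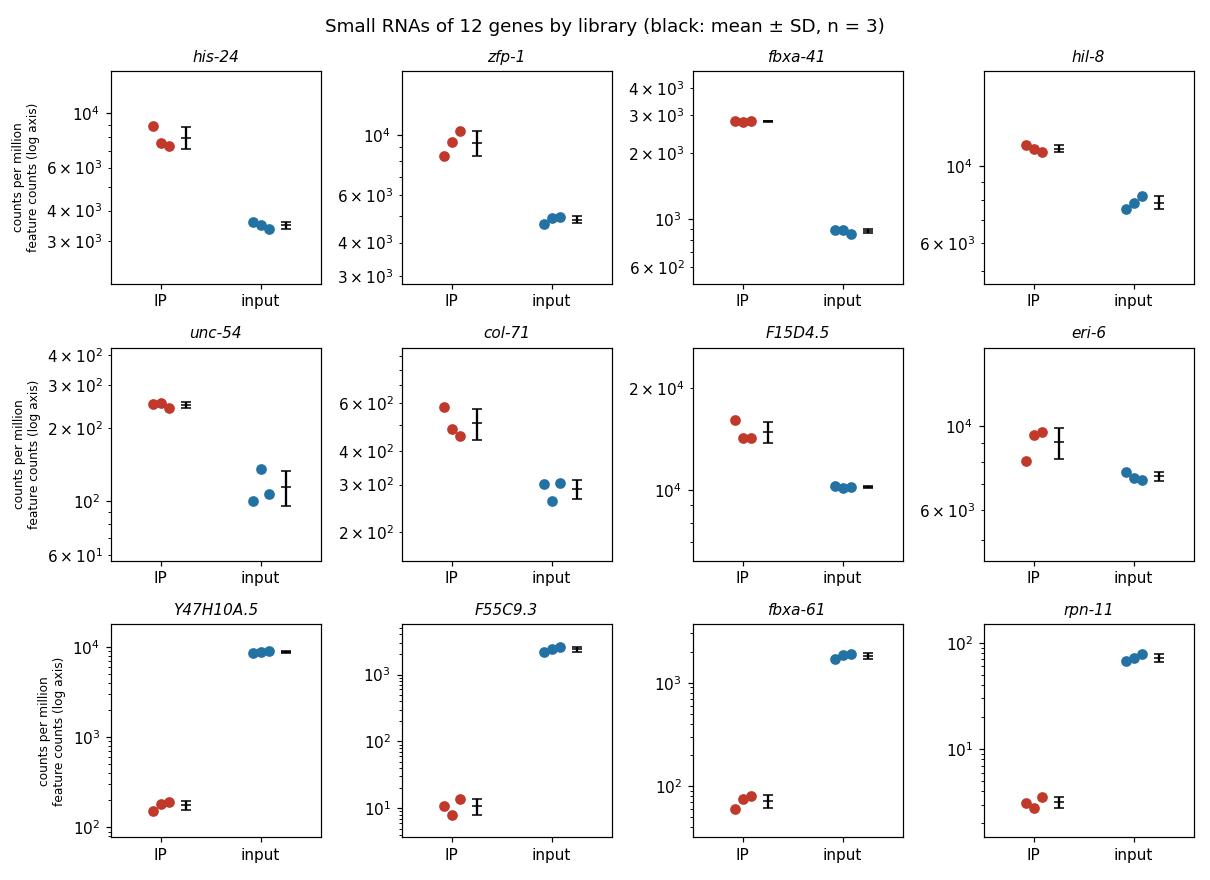
CPM (counts per 1000000 feature counts, log axes) of 12 genes in each of the 3 WAGO-1 IPs (red, left) and 3 inputs (blue, right), with the mean ± SD in black. The IPs lie above the inputs for the first 8 genes, from his-24 to eri-6, and far below them for Y47H10A.5, F55C9.3, fbxa-61 and rpn-11.

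Unnamed intervals, many of which overlap genes in position, were higher in the IP more often than genes were. They held 31.2% ± 0.0179 of IP counts and 26.5% ± 0.206 of input counts (SD, n = 3 each), a gap of 4.76 percentage points in which the groups did not overlap (exact two-sided permutation p = 0.1, the smallest that 3 against 3 can give). Of 1779 tested intervals, 461 were higher (25.9%) and 91 lower (5.12%) on both scales, against 973 higher (9.86%) and 2804 lower (28.4%) of 9869 genes. With TMM alone, 1370 intervals (77.0%) and 3667 genes (37.2%) were higher, and 82.1% of intervals and 65.6% of genes were called in either direction. With total counts 305 intervals (17.1%) and 5381 genes (54.5%) were lower. The 1779 are a small part of the 55259, and 233 of them were covered in the IPs only and 105 in the inputs only. Chosen instead by a mean level of at least 10 CPM in the WAGO-3 input, 664 of 771 intervals were higher and 55 lower with TMM. Of 6816 genes chosen so, 2456 were higher and 2402 lower with TMM. Scaled among themselves alone, 307 intervals were higher and 317 lower, so the direction of intervals as a class rests on scaling them together with genes.

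Intervals with the most reads were long. V:17132108-17137381 on the minus strand, which overlaps the RNA gene Y102A5D.22, had 12730, 12470 and 12360 CPM in the IPs against 10470, 10040 and 10090 in the inputs (log2 fold 1.76 ± 0.07 SE, 0.30 with total counts, adjusted p = 2.48e-52). The adjoining V:17137383-17141676 on the minus strand had 11620, 11590 and 11690 in the IPs against 13040, 12750 and 12790 in the inputs, so its direction rests on the scale, with log2 folds of 1.32 ± 0.07 on the TMM scale (adjusted p = 5.24e-40) and, at an adjusted p of 0.0231, -0.14 with total counts. On the total-count scale the IPs lay above the inputs in the first interval and below them in the second. V:18436471-18442343 on the plus strand, over ZK262.15, ZK262.8 and ZK262.9, had 13160, 10530 and 10130 in the IPs against 7042, 6726 and 6622 in the inputs (2.20 ± 0.07, 0.73 with total counts). By length (end minus start), 209 of 496 tested intervals of over 1000 bases were higher and 14 lower, against 24 and 24 of 159 of up to 100 bases.

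Intervals over piRNA genes went the other way from the rest. PiRNAs, called 21U RNAs in worms, are made mostly from 2 broad regions of chromosome IV and are carried by PRG-1, an Argonaute of another branch. Overlap was judged by position alone, whatever the strand. Of the 199 intervals that overlap a piRNA gene in RefSeq (assembly WBcel235, the same as ce11), 33 were tested, of which 27 were lower in the IP and 1 higher. Their median log2 fold was -4.82 on the TMM scale and -6.02 with total counts. None of the 33 was covered in the IPs only, and 15 were covered in the inputs only. Chosen by the WAGO-3 input level, 16 of 19 were lower and 2 higher with TMM. For IV:16901589-16901613 on the minus strand 1 IP read stood against 92 input reads, a ratio of input to IP of 1151 per feature count (exact 95% interval 201.5 to 45960). IV:16640196-16640236 on the plus strand was read 2 times in the 3 IPs against 52 times in the 3 inputs (ratio 325, interval 85.7 to 2757). Both of these were covered in the inputs only. In the same windows of chromosome IV, 110 tested intervals over no piRNA gene had 39 higher and 1 lower, with a median of 1.85. Summed reads of the 199 intervals held 0.315% ± 0.00956 of IP counts and 0.353% ± 0.00267 of input counts (SD, n = 3 each), so their summed level differed far less than their median fold.

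The 4 other classes of interval, also set by position whatever the strand, had positive medians. Of 843 tested intervals over no RefSeq gene, 228 were higher and 17 lower, of 721 over a protein-coding gene 184 and 34, of 148 over a pseudogene without a protein-coding gene 41 and 10, and of 34 over another RNA gene 7 and 3. The medians on the TMM scale were 1.74, 1.73, 1.62 and, for the last and smallest class, 1.295. IV:14776980-14777043 on the minus strand, over no RefSeq gene, had 37, 69 and 60 reads in the IPs and none in the 3 inputs, which makes it at least 4.42-fold higher per feature count, taking 3 reads over the 3 inputs as the limit. V:3106927-3107051 on the minus strand, over the chemoreceptor gene str-68, had 82.9, 60.4 and 57.3 CPM in the IPs against 9.54, 5.80 and 19.7 in the inputs (log2 fold 4.00 ± 0.30 SE, 2.55 with total counts, adjusted p = 8.09e-25). Both intervals were covered in the IPs only.

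**Figure D3:**
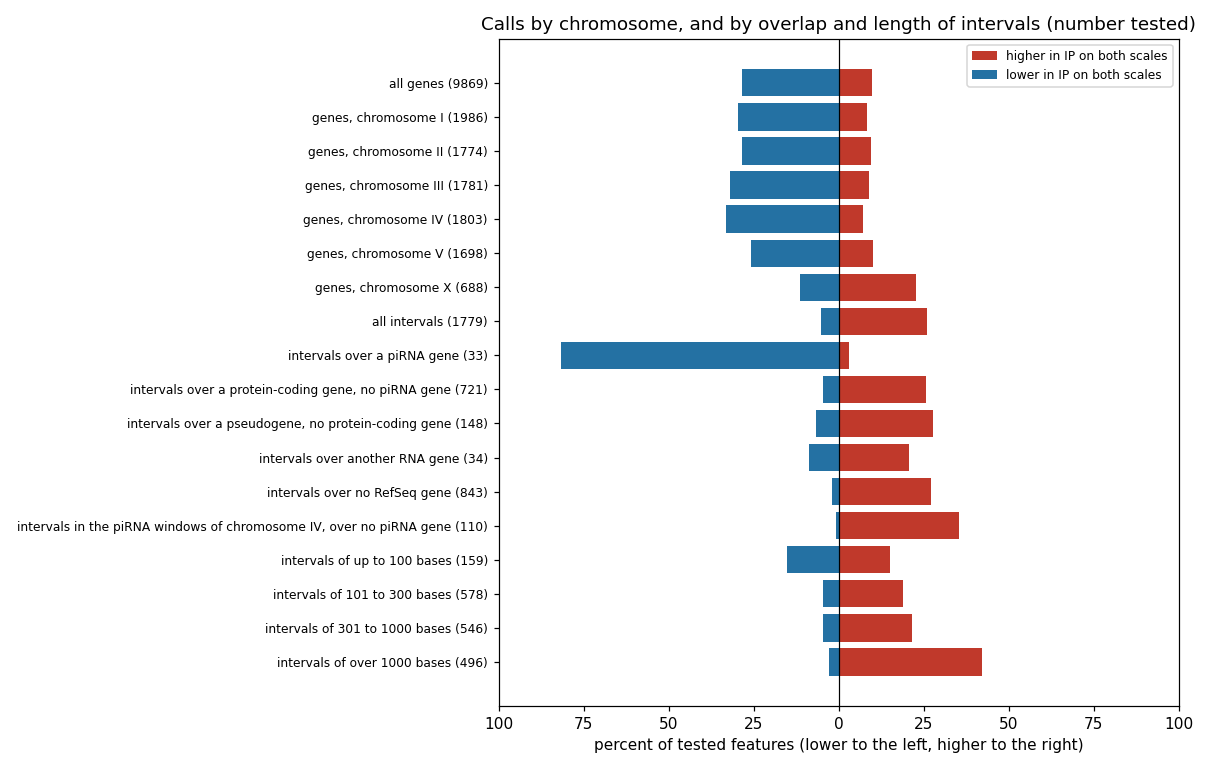
Bars give the percentage of tested features higher in the WAGO-1 IP on both scales (red, to the right) and lower on both scales (blue, to the left) for genes by chromosome and intervals by overlap and length, with the number tested in brackets. Among gene sets, chromosome X has the longest red and the shortest blue bar, and the 33 intervals over a piRNA gene have 27 in the blue bar and 1 in the red.

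Genes on the X chromosome were higher in the WAGO-1 IP more often than genes on the autosomes. In the worm germ line the X chromosome is largely silent until oogenesis, and it carries many genes expressed in somatic tissue. Of 688 tested X-linked genes, 156 were higher (22.7%) and 79 lower (11.5%), against 790 higher (8.74%) and 2697 lower (29.8%) of 9042 autosomal genes. The median log2 fold was 1.597 for the X and 0.07 for the autosomes on the TMM scale, and 0.16 and -1.37 with total counts. A change of scale shifts all folds by nearly the same amount, so the like gap on both scales is no further check. The medians of the 5 autosomes ran from -0.14 on chromosome IV to 0.41 on chromosome V. Of the X-linked genes 90 were covered in the IPs only and 74 in the inputs only. Chosen by the WAGO-3 input level, 180 of 276 X-linked genes were higher and 60 lower with TMM, against 2223 and 2319 of 6442 autosomal genes. X-linked genes held 6.02% ± 0.0216 of IP counts and 4.74% ± 0.0484 of input counts (SD, n = 3 each; exact two-sided permutation p = 0.1). Intervals differed less by chromosome, with medians from 1.58 on chromosome IV to 1.83 on the X.

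Of the 35 gene lists described below, 13 had a median log2 fold above that of all features (0.52 on the TMM scale) and 22 below it. Against the median of all genes (0.16) 15 were above and 20 below, since the median of all genes itself stood at -0.36 relative to that of all features, the yardstick used below. The background to read the counts on both scales against is 9.86% of genes higher and 28.4% lower. With TMM alone it is 37.2% higher and 28.4% lower. For members chosen by the WAGO-3 input level and called with TMM, it is 2456 higher and 2402 lower of 6816 genes. In each list the counts cover the tested members, and a member counted higher or lower is so on both scales. The libraries are of whole worms, so in any level the number of cells of a type and the small RNAs per cell cannot be told apart.

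**Figure D4:**
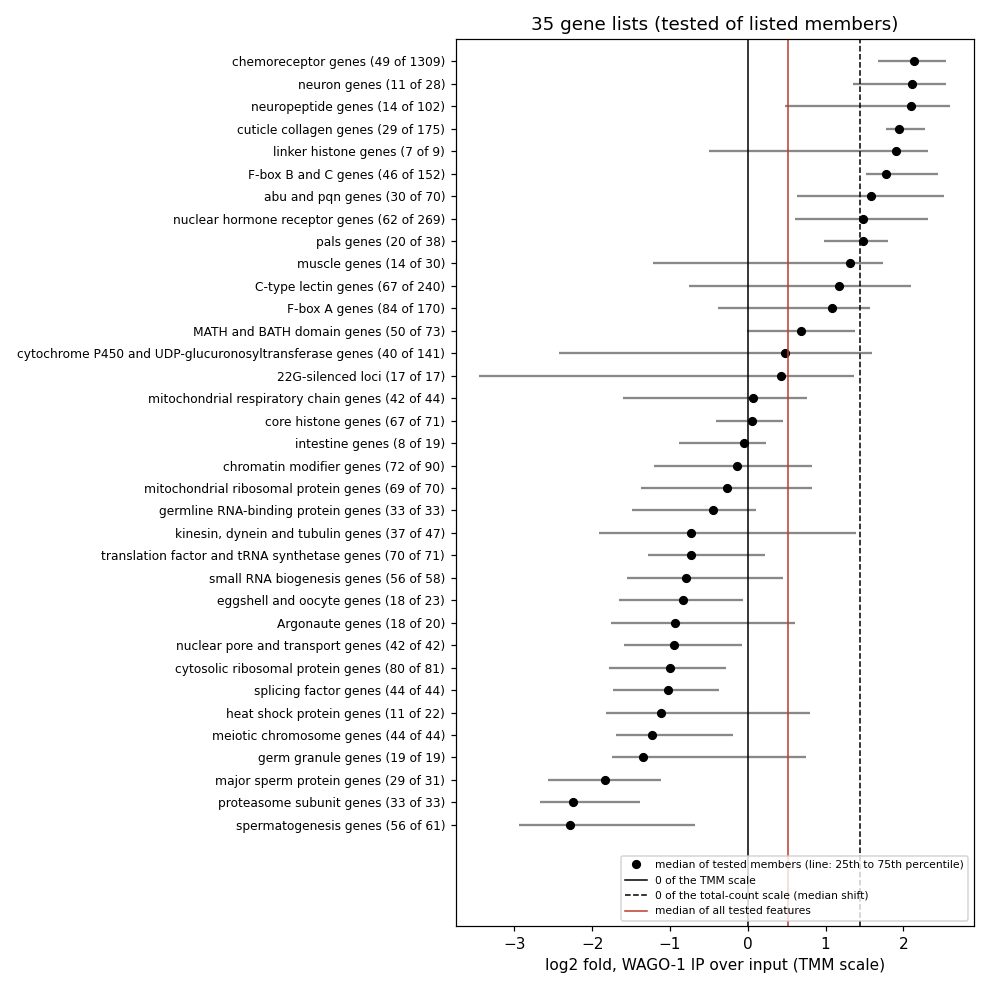
Points give the median log2 fold of WAGO-1 IP over input on the TMM scale over the tested members of each of 35 gene lists, and lines the 25th to 75th percentile, with tested and listed members in brackets. Vertical lines mark the 0 of the TMM scale (solid black), the 0 of the total-count scale (dashed) and the median of all tested features (red, 0.52). Chemoreceptor genes stand at the top and spermatogenesis genes at the bottom.

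By the median log2 fold of tested members, chemoreceptor genes and genes of neurons stood highest of the 35 lists. By the share higher on both scales the order differed. Linker histone and neuropeptide genes had 42.9% each and cuticle collagen genes 37.9%, against 24.5% of chemoreceptor and 18.2% of neuron genes. Among members chosen by the WAGO-3 input level, the median on the TMM scale was 2.09 for cuticle collagen, 2.04 for neuropeptide, 1.97 for chemoreceptor and 1.86 for neuron genes. Chemoreceptor genes, which encode the large worm families of G-protein-coupled receptors of sensory neurons, had 49 tested of 1309 listed, 12 higher and 5 lower, with a median 1.62 above that of all features on the log2 scale. The gene srt-43 had 306.1, 358.5 and 383.1 CPM in the IPs against 195.5, 282.2 and 238.9 in the inputs (log2 fold 1.95 ± 0.11 SE, 0.50 with total counts), and str-68 had 93.6, 90.3 and 89.5 against 38.1, 40.6 and 47.8 (2.55 ± 0.18, 1.10 with total counts). In both, every IP exceeded every input. Of 14 neuropeptide genes tested, from 102 listed, 6 were higher and 2 lower (median 1.58 above all), among them flp-16 with 644.8, 499.1 and 482.0 CPM in the IPs against 257.5, 303.5 and 331.7 in the inputs (2.29 ± 0.11). Of 11 neuron genes tested, from 28 listed, 2 were higher and none lower (median 1.596 above all), and with TMM alone 9 were higher and none lower. The 2 were rab-3 and unc-10, which encodes the presynaptic scaffold RIM, at 70.5, 78.1 and 89.5 CPM in the IPs against 28.6, 38.7 and 36.5 in the inputs (2.60 ± 0.20, 1.16 with total counts).

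Of the tested members of these 3 lists, 11, 3 and 1 were covered in the IPs only, and most listed members did not pass the filter on low counts. Chosen by the WAGO-3 input level and called with TMM, 12 of 15 chemoreceptor genes were higher and 3 lower. Likewise 4 of 5 neuropeptide genes and 6 of 7 neuron genes were higher and none lower. Over all genes chosen so, 2456 of 6816 were higher and 2402 lower. Muscle genes had 2 higher and 3 lower of 14, with a median 0.79 above that of all features, which turned to -1.36 in a fit on the 6 libraries alone. The 2 were ttn-1 and unc-54, which encode titin and a myosin heavy chain, and the lower ones were the actin genes act-1, act-2 and act-3, near-identical copies whose reads may be split by the counting. Intestine genes had none higher and none lower of 8, and their reads were few, 342 in all IPs and 67 in all inputs.

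Cuticle collagens and linker histones were also high. Of 175 cuticle collagen genes 29 were tested, 11 higher and 3 lower (median 1.42 above all). Chosen by the WAGO-3 input level, all 16 tested were higher with TMM. The gene col-45 had 285.4, 270.4 and 264.4 CPM in the IPs against 176.4, 114.1 and 146.2 in the inputs (log2 fold 2.44 ± 0.12 SE, 0.98 with total counts), and col-111 had 637.8, 551.6 and 529.4 against 400.5, 371.2 and 385.1 (2.04 ± 0.09, 0.58 with total counts). Of 7 tested linker histone genes, which encode the histone that binds DNA between nucleosomes, his-24, hil-8 and hil-3 were higher, and hil-4 and hil-5 were lower. The gene his-24 had 8902, 7564 and 7378 CPM in the IPs against 3590, 3480 and 3370 in the inputs, and hil-8 had 11450, 11150 and 10950 against 7524, 7800 and 8188. Together the linker histone genes held 2.03% ± 0.105 of IP counts and 1.24% ± 0.0216 of input counts (SD, n = 3 each). Core histone genes, by contrast, had 1 higher, his-67, and 11 lower of 67 tested, with a median 0.46 below all, and as near-identical copies their values are uncertain.

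F-box genes, which encode substrate adaptors of ubiquitin ligases and have multiplied in this species, divided by subfamily and by gene. Of 46 tested F-box B and C genes 10 were higher and 2 lower (median 1.26 above all), while of 84 F-box A genes 6 were higher and 18 lower (median 0.56 above all, and -0.34 relative to all with no filter on low counts). The gene fbxa-41 (chromosome X, 1949161 to 1950728) had 2826, 2784 and 2819 CPM in the IPs against 886.9, 891.2 and 851.7 in the inputs (log2 fold 3.14 ± 0.08 SE, 1.68 with total counts, adjusted p = 2.28e-70). Its relatives fbxa-61 (chromosome III, 1239048 to 1242791) and fbxa-52 (chromosome X, 1710149 to 1712638) went the other way, with 60.8, 75.5 and 80.0 in the IPs against 1678, 1840 and 1903 in the inputs for fbxa-61 (-3.18 ± 0.09) and 2.76, 3.76 and 4.49 against 686.6, 835.1 and 916.3 for fbxa-52 (-6.29 ± 0.15). MATH and BATH domain genes, which encode adaptors of another ubiquitin ligase, had 3 higher and 4 lower of 50. Of 20 pals genes, which take part in the response to intracellular pathogens, pals-22 was higher and pals-26 lower, and as pals-26 held most of the family's input reads, the family took 0.0459% ± 0.000419 of IP counts and 0.500% ± 0.183 of input counts (SD, n = 3 each).

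Nuclear hormone receptor genes, a family of ligand-regulated transcription factors that is very large in worms, had 20 higher and 7 lower of 62 tested (median 0.97 above all). The gene nhr-229 had 4363, 4574 and 4665 CPM in the IPs against 2832, 3227 and 3145 in the inputs (log2 fold 2.02 ± 0.07 SE, 0.56 with total counts, adjusted p = 6.84e-55), and nhr-21 had 79.8, 82.8 and 77.0 against 38.1, 23.2 and 16.9 (3.18 ± 0.22, 1.73 with total counts). Of 30 abu and pqn genes 10 were higher and 2 lower, and of 67 C-type lectin genes 7 were higher and 12 lower. Among the lectin genes clec-171 was higher (2.97 ± 0.16, 1.52 with total counts) and clec-166 lower (-3.54 ± 0.24, -4.98 with total counts). Cytochrome P450 and UDP-glucuronosyltransferase genes, which modify lipids and foreign compounds, had 2 higher and 13 lower of 40.

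Genes of sperm and of the proteasome stood lowest. Sperm are made around the L4 stage in hermaphrodites. Of 56 tested spermatogenesis genes none was higher and 38 were lower (median 2.80 below all), and of 29 major sperm protein genes none was higher and 21 were lower (median 2.35 below all). With TMM alone 7 spermatogenesis genes were higher. The gene spe-12 had 3.46, 0.941 and 1.69 CPM in the IPs against 476.8, 239.7 and 224.9 in the inputs (log2 fold -5.86 ± 0.25 SE, adjusted p = 4.60e-47), ssp-16 had 7.60, 7.72 and 11.2 against 228.9, 230.1 and 199.6 (-3.15 ± 0.17), and nspd-6, of a family of small sperm proteins, had 1.04, 0.941 and 1.69 against 57.22, 94.73 and 89.95 (-4.60 ± 0.34). Of the tested members of these lists, 32 and 19 were covered in the inputs only, and none in the IPs only. Chosen by the WAGO-3 input level, 35 of 46 and 17 of 22 were lower with TMM.

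The proteasome, the protease that degrades ubiquitin-tagged proteins, had the largest share of lower members of the 35 lists. Of 33 subunit genes tested of 33 listed, 30 were lower and none higher, with a median 2.77 below that of all features, and on the total-count scale 33 were lower. In the regulatory particle, rpn-11, the deubiquitinase of the lid, had 3.11, 2.82 and 3.56 CPM in the IPs against 66.8, 71.5 and 78.7 in the inputs (log2 fold -3.06 ± 0.27 SE, adjusted p = 1.17e-19), and rpn-2 had 5.53, 4.89 and 6.74 against 90.6, 81.2 and 84.3 (-2.42 ± 0.25). In the core, pbs-5 had 3.46, 4.14 and 1.69 against 81.06, 63.80 and 44.97 (-2.87 ± 0.30). Together the subunit genes held 0.0122% ± 0.000339 of IP counts and 0.115% ± 0.00471 of input counts (SD, n = 3 each). Of the 33 genes, 31 were covered in the inputs only. All 33 were also chosen by the WAGO-3 input level, where the count with TMM was again 30 lower and none higher.

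Genes of the small RNA machinery itself were more often lower. Of 18 tested Argonaute genes 2 were higher and 11 lower (median 1.45 below all). Small RNAs of csr-1 had 17.97, 22.02 and 17.79 CPM in the IPs against 214.6, 394.4 and 337.3 in the inputs (log2 fold -2.65 ± 0.14 SE, adjusted p = 8.18e-38), and those of wago-4, an Argonaute of inherited silencing, 40.8, 33.7 and 42.3 against 357.6, 330.6 and 340.1 (-1.68 ± 0.12). The gene prg-1 was higher by a small margin, with 1287, 1227 and 1171 against 948.8, 1075 and 1088 (1.69 ± 0.08, 0.23 with total counts), and wago-5 was the other higher one. Of 56 small RNA biogenesis genes 2 were higher and 30 lower (median 1.32 below all). Among the RNA-dependent RNA polymerases that make 22G RNAs, ego-1 was lower at 10.7, 12.8 and 11.4 in the IPs against 138.3, 135.3 and 120.9 in the inputs (-2.02 ± 0.18), while rrf-2, of the same family, was higher at 114.4, 152.4 and 161.2 against 100.1, 114.1 and 112.4 (1.83 ± 0.14, 0.39 with total counts).

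Other germline lists moved likewise. Germ granule genes, whose products form the perinuclear compartments where these RNAs act, had 1 higher and 12 lower of 19 (median 1.87 below all). The higher one was meg-4 (log2 fold 2.32 ± 0.11 SE, 0.86 with total counts), and pgl-1, the granule scaffold, was lower with 24.2, 24.5 and 22.9 CPM in the IPs against 186.0, 193.3 and 194.0 in the inputs (-1.56 ± 0.15). Meiotic chromosome genes had none higher and 25 lower of 44, with the chromosome axis gene htp-1 at 28.3, 28.2 and 25.8 against 247.9, 208.8 and 188.3 (-1.49 ± 0.14). Germline RNA-binding protein genes had 2 higher and 15 lower of 33, and the higher ones were puf-7 and puf-5. Eggshell and oocyte genes had none higher and 9 lower of 18, among them cpg-2 (-3.02 ± 0.55) and egg-6 (-2.68 ± 0.15). Chromatin modifier genes had 3 higher and 28 lower of 72, the higher ones including hpl-2, a heterochromatin protein 1 homologue, at 174.1, 165.8 and 149.6 against 81.1, 119.9 and 92.8 (2.11 ± 0.14, 0.66 with total counts), and jmjd-3.1, a histone demethylase gene.

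Of 7 lists of genes used in every cell, 5 had 41.2% to 59.5% of their tested members lower, against 28.4% of all genes, and the mitochondrial lists lay near that share. Of cytosolic ribosomal protein genes 33 of 80 were lower, of translation factor and tRNA synthetase genes 33 of 70, of splicing factor genes 25 of 44, of nuclear pore and transport genes 25 of 42, of kinesin, dynein and tubulin genes 17 of 37, of mitochondrial ribosomal protein genes 20 of 69 and of mitochondrial respiratory chain genes 13 of 42. Their medians lay 1.52, 1.25, 1.54, 1.46, 1.25, 0.78 and 0.45 below that of all features, and that of the respiratory chain genes, at 0.07 on the TMM scale, was close to the 0.16 of all genes. Members that were higher numbered 1 among translation factors, iff-2, and 2 among kinesin, dynein and tubulin genes, dhc-4 and tba-6. The gene iff-2, which encodes a form of the factor eIF5A, had 718.7, 703.3 and 675.6 CPM in the IPs against 352.8, 429.2 and 458.2 in the inputs (log2 fold 2.19 ± 0.09 SE, 0.73 with total counts). The spliceosome gene prp-8 had 11.4, 15.4 and 10.5 against 128.7, 199.1 and 126.5 (-2.22 ± 0.18), and the nucleoporin gene npp-6 averaged 5.76 CPM in the IPs against 113.1 CPM in the inputs (-2.77 ± 0.22). Of 11 heat shock protein genes 6 were lower and hsp-3, which encodes a chaperone of the endoplasmic reticulum, was higher.

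Loci listed as silenced by 22G RNAs split in both directions. Of 17 listed and tested, 3 were higher and 7 lower on both scales, and with TMM alone 10 were higher and 7 lower, so all 17 were called on that scale. F15D4.5 had 16060, 14230 and 14240 CPM in the IPs against 10250, 10130 and 10200 in the inputs (log2 fold 2.01 ± 0.07 SE, 0.54 with total counts, adjusted p = 1.30e-56), and Y37E11B.2 had 124.4, 140.6 and 144.0 against 4706, 5119 and 5414 (-3.76 ± 0.08, -5.21 with total counts, adjusted p = 2.65e-79). Both lie outside the spread of the replicates by a wide margin, in opposite directions. As a group the 17 loci held 2.77% ± 0.0511 of IP counts and 5.34% ± 0.0991 of input counts (SD, n = 3 each). Reads of the genes the series targets were few and lower in the IP, with 3.80, 4.71 and 4.68 CPM in the IPs against 19.1, 88.9 and 78.7 in the inputs for wago-1 (-2.53 ± 0.28, adjusted p = 5.88e-15) and 1.38, 2.82 and 2.06 against 52.5, 30.9 and 33.7 for dpf-3 (-2.57 ± 0.38). Neither gene is deleted in these libraries.

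The same comparison in the WAGO-3 strain, prepared alike and sharing no library with this one, shows where enrichment over input differs between the strains. Such a difference can lie in the inputs as well as in the IPs. The difference of the log2 folds (WAGO-1 IP over input minus WAGO-3 IP over input) was tested in the same fit. Counts in this paragraph are on the TMM scale unless total counts are named. It was positive for 1641 genes (16.6%) and negative for 1048 (10.6%), and positive for 109 intervals (6.13%) and negative for 403 (22.7%). With total counts it was positive for 1881 genes and 126 intervals and negative for 803 and 329. Intervals held 26.5% of WAGO-1 input counts and 31.2% of WAGO-1 IP counts. In WAGO-3 inputs A, B and C they held 29840 of 212387, 43256 of 305688 and 31904 of 222075 feature counts. In WAGO-3 IPs A, B and C they held 832630 of 3614811, 852616 of 3706143 and 504461 of 2206087. A negative difference thus does not mean fewer interval counts in the WAGO-1 IPs. Of X-linked genes, 176 of 688 were relatively higher with WAGO-1 and 39 relatively lower, against 1433 and 984 of 9042 autosomal genes. Their median stood 1.08 above that of all features with WAGO-1 and 0.28 below it with WAGO-3. By list, C-type lectin genes had 22 positive differences and none negative of 67, cytochrome P450 and UDP-glucuronosyltransferase genes 11 and none of 40, chemoreceptor genes 12 and none of 49, and intestine genes 6 and none of 8. Small RNA biogenesis genes had 2 positive and 22 negative of 56. Translation factor and tRNA synthetase genes had none and 18 of 70, and 2 and 12 with total counts. Meiotic chromosome genes had 2 and 15 of 44, and germ granule genes none and 9 of 19. The counts for the proteasome were none and 2 of 33.

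**Figure D5:**
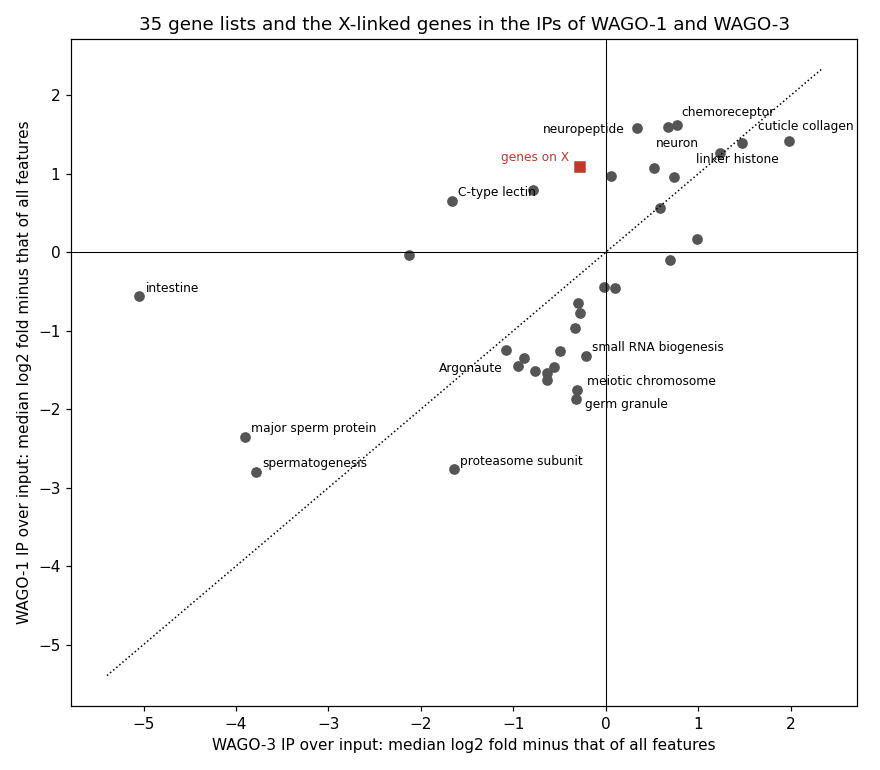
For each of 35 gene lists (grey, some named) and for the X-linked genes (red square), the y axis gives the median log2 fold of WAGO-1 IP over input and the x axis that of WAGO-3 IP over input, each minus the median of all tested features of its strain. On the dotted line both are equal. The X-linked genes stand at 1.08 with WAGO-1 and -0.28 with WAGO-3, and intestine genes at -0.56 and -5.04.

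Single genes went in opposite directions in the 2 strains. For nhr-229 the log2 fold was 2.02 ± 0.07 with WAGO-1 and -2.95 ± 0.08 with WAGO-3, a difference of 4.97 ± 0.11 (SE, edgeR adjusted p = 6.26e-78). For fbxa-41 it was 3.14 ± 0.08 with WAGO-1 and -1.31 ± 0.09 with WAGO-3, a difference of 4.45 ± 0.12 (adjusted p = 4.07e-66), and for jmjd-3.1 2.77 ± 0.20 and -2.09 ± 0.36, a difference of 4.86 ± 0.45 (adjusted p = 5.99e-18). These calls were made in opposite directions on both scales. Other genes moved alike in both strains: for col-71 the folds were 2.28 ± 0.10 with WAGO-1 and 2.29 with WAGO-3, a difference of -0.01 (adjusted p = 0.976), and for nspd-6 -4.60 and -4.86, a difference of 0.25 (adjusted p = 0.813). Small RNAs of csr-1 were lower in both IPs and more so with WAGO-1 (-2.65 with WAGO-1 and -0.73 with WAGO-3, difference -1.92, adjusted p = 5.18e-17).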

How the data were processed

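Small RNAs of 6 groups of 3 libraries were analysed from a table of read counts. Per the file headers and the values, the authors deposited whole-number counts per feature with no normalisation. Per the submitters' processing notes the tools were Bowtie 1.2.3, HTSeq 0.11.2, SAMtools 1.9 and cutadapt 2.3, with build ce11. The sources used here state neither the strand setting nor the annotation, nor how multiply mapping reads or molecular identifiers were handled. A gene's sense reads and its antisense reads can thus not be separated, and families of near-identical copies are uncertain.

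From the counts of all 18 libraries, filterByExpr in edgeR 4.0.16 (R 4.3.3, minimum count 10) kept 9869 genes and 1779 intervals. Of these features, 3806 reached its level neither in all 3 WAGO-1 IPs nor in all 3 WAGO-1 inputs. Run on the 6 libraries of the comparison, the filter kept 8532 features. A quasi-likelihood fit of group means took in all 18 libraries with TMM factors, and again with total feature counts, and reads in no feature stayed out. P-values were adjusted over all 11648 features, and the fit was tested on simulated data. SE is the standard error of a log2 fold. The floor for a count of 0 was 3 counts over a group, and intervals and floors cover counting error only. Symbols came from a name table (19832 of 20134 genes named) and positions from RefSeq WBcel235 (19784 matched). Overlap of an interval with a gene was by position alone, without regard to strand. Named features were the 10 genes and 6 intervals a direction with the largest folds, among those called on both scales, without overlap and at 20 CPM or more in either group; up to 4 members of each list by p; the 10 genes and 5 intervals with the most IP reads; and wago-1 and dpf-3. Some of them are printed. Members, gene lists and tests were chosen with earlier results of these data known. Letters A, B and C were not taken to pair an IP with an input.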

Additional observations from a re-analysis of the deposited data

Results flagged for a closer look

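The genes here were picked out because their enrichment differs between the 2 strains: each was higher in the WAGO-1 IP and lower in the WAGO-3 IP, called on both scales, with a difference of log2 folds (WAGO-1 minus WAGO-3) past edgeR's quasi-likelihood test. Beside fbxa-41 (4.45), nhr-229 (4.97) and jmjd-3.1 (4.86) they are C44C1.1 (difference 8.94 ± 1.43 SE, adjusted p = 1.19e-07) and T21B6.3 (6.90 ± 1.33, adjusted p = 1.10e-05), both X-linked and with 2 and 4 input reads with WAGO-1, and bath-31, a MATH and BATH domain gene (6.27 ± 0.76, adjusted p = 5.94e-12). The others are clec-108, a C-type lectin gene (5.17 ± 0.62), nlp-9, a neuropeptide gene (5.55 ± 1.05), unc-10 (4.26 ± 0.60), pqn-73 (4.25 ± 0.46) and cyp-34A6, a cytochrome P450 gene (3.45 ± 0.39). None of the genes named by the rule went the other way, lower with WAGO-1 and higher with WAGO-3 on both scales. With TMM alone some did, among them set-31 (-1.49 with WAGO-1 and 1.23 with WAGO-3) and pgl-1 (-1.56 and 0.58). The WAGO-3 median over all features was 0.23 with TMM and -1.39 with total counts. A call of higher with WAGO-3 on both scales was thus harder to reach than one of lower. The WAGO-3 libraries come from another strain with another tagged protein, and the part of the strain in these differences was not tested.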

How the results depend on the processing

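With total counts 973 genes were higher and 5381 lower, and 461 intervals higher and 305 lower. Genes higher numbered 2072 in a fit on the 6 libraries, 2046 with a minimum count of 30 and 2362 with DESeq2, and intervals higher 735 with a minimum count of 30. Scaled apart from genes, 307 intervals were higher and 317 lower. With features chosen by WAGO-3 input level, an alternative added after seeing the data, intervals gave 664 higher and 55 lower. Without each WAGO-1 replicate in turn, genes higher ranged from 3184 to 3654, genes lower from 2183 to 2754, intervals higher from 1253 to 1381 and intervals lower from 76 to 93. The lists with a median above that of all features numbered 13 to 14, and the features differing between strains, with WAGO-3 replicates left out too, 2687 to 3228. With filter and scaling recomputed, also added after seeing the data, genes higher fell to 2262, 2214 and 2216 without IP replicate A, B and C, and intervals higher to 803, 787 and 781; across all 6 replicates the ranges were 2214 to 3703 and 781 to 1549.

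The direction of V:17137383-17141676 on the minus strand turned to -0.14 with total counts and to -0.26 with intervals scaled alone. Relative to all features, the median of cytochrome P450 and UDP-glucuronosyltransferase genes became 0.37 in the 6-library fit, 0.68 with a minimum count of 30 and 0.016 with DESeq2, and ranged from -0.19 to 0.10 without each replicate. That of muscle genes became -1.36 in the 6-library fit. With no filter the medians of F-box A and of MATH and BATH domain genes became -0.34 and -0.11. The median of 22G-silenced loci became 0.024 with a minimum count of 30 and 0.28 with features chosen by WAGO-3 input level, where that of C-type lectin genes became -0.47. The cause of these moves was not tested. Other scalings moved the median of all features by -0.26 (all counted reads), -0.04 (RLE size factors) and -0.51 (TMM over the 6 libraries). Of the 175 named features none changed direction or call with DESeq2, RLE size factors, TMM over the 6 libraries, all counted reads or no filter. Most of these features were named for being called alike with TMM and with total counts. The alternatives just listed, with median shifts from -0.04 to -0.51, lie between those 2 scalings, so this stability was largely fixed by the choice. Without input replicate B, 1 named feature lost its call.

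Deviations of same-lettered IP and input correlated at 0.01, -0.001 and 0.01 across 11648 features. The inputs differed by little more than counting noise (chi-square per degree of freedom 1.05 to 1.22). These correlations therefore cannot show whether the letters pair the libraries. With the replicate block in the 6-library fit, 2108 genes were higher, and the medians relative to all features were -1.36 for muscle genes and 0.34 for cytochrome P450 and UDP-glucuronosyltransferase genes.

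The inputs, at 209731 to 517278 counts in features, limit the precision of weakly covered features.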
